A study of Mus musculus with 6 samples.

Results

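The BCL2 family of apoptosis regulators was followed through 10 genes, Bcl2, Bcl2l1, Mcl1, Bax, Bak1, Bid, Bbc3, Bcl2l11, Bmf and Pmaip1. They were taken by symbol from the 39179 genes listed for each library, and all 10 passed the filter on low values that left 14365 genes for testing. The material was mouse liver tumour RNA from C57BL/6 wildtype animals, in which transposable elements had been brought into hepatocytes by hydrodynamic injection, the rapid injection of a large volume of DNA solution. In 3 libraries the elements encoded Myc and NrasG12V, the small GTPase Nras locked in its active state (Myc/NrasG12V), and in 3 they encoded Myc and Akt1, a kinase of the phosphoinositide 3-kinase pathway (Myc/Akt1). Both groups thus carry the Myc transgene, and no tumour-free liver enters the comparison. Polyadenylated RNA was sequenced, and levels are CPM, the reads of a gene scaled to a library total of 1000000. The labels give no age, sex or transgene promoter, and leave unstated whether each sample is from another animal, so p-values measure only the spread between these samples.

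Proteins of this family decide whether the outer membrane of the mitochondrion is breached, the step that releases cytochrome c and starts the caspase cascade. Guardians (Bcl2, Bcl2l1, Mcl1) hold the pore-forming effectors (Bax, Bak1) in check, and BH3-only proteins (Bid, Bbc3, Bcl2l11, Bmf, Pmaip1) sense stress and bind guardians or effectors through a short helix, the BH3 domain. In hepatocytes Mcl1 and Bcl2l1, which encodes BCL-XL, are the guardians known to be needed for survival, and Bid links death receptors to mitochondria.

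The helix that ties the family together is shown first, because the guardians, effectors and BH3-only genes described below all encode it. For 9 of the 10 members the coding bases around the BH3 core are given, read from GENCODE M21 transcripts on GRCm38, 5′ to 3′ on the gene's own strand. The capitals mark the codon of the invariant leucine and the codon of the aspartate that ends the core.
Bcl2: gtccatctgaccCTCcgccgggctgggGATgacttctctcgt, chr1:106712572-106712613, minus strand.
Bcl2l1: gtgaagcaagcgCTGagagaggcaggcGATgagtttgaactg, chr2:152829694-152829735, minus strand.
Mcl1: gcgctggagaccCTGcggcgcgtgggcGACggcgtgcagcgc, chr3:95659424-95659465, plus strand.
Bax: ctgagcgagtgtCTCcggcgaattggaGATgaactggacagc, chr7:45465994-45466035, minus strand.
Bak1: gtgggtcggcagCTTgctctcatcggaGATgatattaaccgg, chr17:27022528-27022569, minus strand.
Bid: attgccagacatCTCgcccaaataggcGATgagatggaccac, chr6:120897286-120897327, minus strand.
Bbc3: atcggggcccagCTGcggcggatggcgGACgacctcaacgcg, chr7:16313761-16313802, plus strand.
Bcl2l11: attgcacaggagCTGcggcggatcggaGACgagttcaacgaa, chr2:128147138-128147179, plus strand.
Bmf: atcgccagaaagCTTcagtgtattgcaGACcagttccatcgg, chr2:118545097-118545138, minus strand.
The pattern searched was a leucine codon, 3 codons of any kind, a glycine or alanine codon and an aspartate codon, in frame. Each of the 9 genes held it once, and 23.9% of all 21584 coding genes searched hold at least one match, so a match alone does not define the helix. The 3 guardians and both effectors have a glycine codon before the aspartate, as do Bid and Bcl2l11, whereas Bbc3 and Bmf have an alanine codon there.

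The 6 libraries held 17881282 to 27865094 reads assigned to genes. Whether reads of the delivered transgenes are part of the gene totals is not given in the sources used here. Nras averaged 171 ± 25.0 CPM in Myc/NrasG12V and 56.0 ± 4.51 CPM in Myc/Akt1, Akt1 averaged 65.1 ± 19.1 and 279.9 ± 33.8 CPM, and Myc averaged 153 ± 29.4 and 154 ± 55.0 CPM, in the same order (SD, n = 3 each). The 7 hepatocyte markers were detected in every library, with a summed level of 138782 to 187394 CPM in Myc/NrasG12V and 39850 to 54984 CPM in Myc/Akt1. Of the 7, 4 were called higher, whereas Alb, which made up most of the sum, was not called (110858 and 33563 CPM on average, limma adjusted p 0.184). The Alb groups did not overlap, and over the alternative settings (limma, edgeR or DESeq2) its adjusted p ran from 5.75e-15 to 0.740. Hnf4a averaged 628 and 601 CPM, in that order. Ttr went the other way, at 2281 and 4332 CPM with no overlap, and was not called (limma adjusted p 0.0785). Of the 14365 genes tested with limma on log2(CPM + 1), 39.5% differed at a Benjamini-Hochberg adjusted p below 0.05, 10% higher and 29.5% lower in Myc/NrasG12V, and the median log2 difference of all genes was -0.26. That median was 0.00 with TMM factors, which rescale the libraries by their trimmed mean difference, and 34.1% of genes were then called, 16.2% higher and 17.9% lower, so 52.4% of calls were lower where the plain CPM scale gave 74.7%. Because of this shift, each member's difference is read beside the median of all genes, and calls that appear or end with TMM factors are named.

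In Myc/NrasG12V tumours the guardian gene Bcl2l1 and the BH3-only gene Pmaip1 rose and the effector gene Bak1 fell, and the other 7 members did not pass the test. Thus 3 of 10 members were called, 2 higher and 1 lower, beside backgrounds of 39.5%, 10% and 29.5%. The total and the lower count are below the share of all genes, and the higher count, of 2 genes, is above it. The direction of the differences lay above that of the transcriptome: 8 of 10 members had a positive log2 difference, and the median was 0.54, against -0.26 for all genes tested. The values of the 2 groups did not overlap for 7 of 10 members, beside 52.7% of all genes. With TMM factors 6 members were called, all higher in Myc/NrasG12V (Bcl2l1, Pmaip1, Bax, Bcl2, Mcl1 and Bmf), beside 16.2% of genes, and Bak1 was no longer called. The same number, 6, was higher with median-of-ratios factors (beside 16.5% of genes), upper-quartile factors (17.7%) and edgeR's count test (16.6%), and 7 with DESeq2 (19.2%). On the CPM scale without Myc/Akt1 replicate 3, 5 members were called, 4 higher and 1 lower. Of the 14365 genes, 5262 were then called, 1292 higher and 3970 lower. In bulk tissue, fewer cells of a type and less RNA per cell cannot be told apart, for these and all later values.

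**Figure D1:**
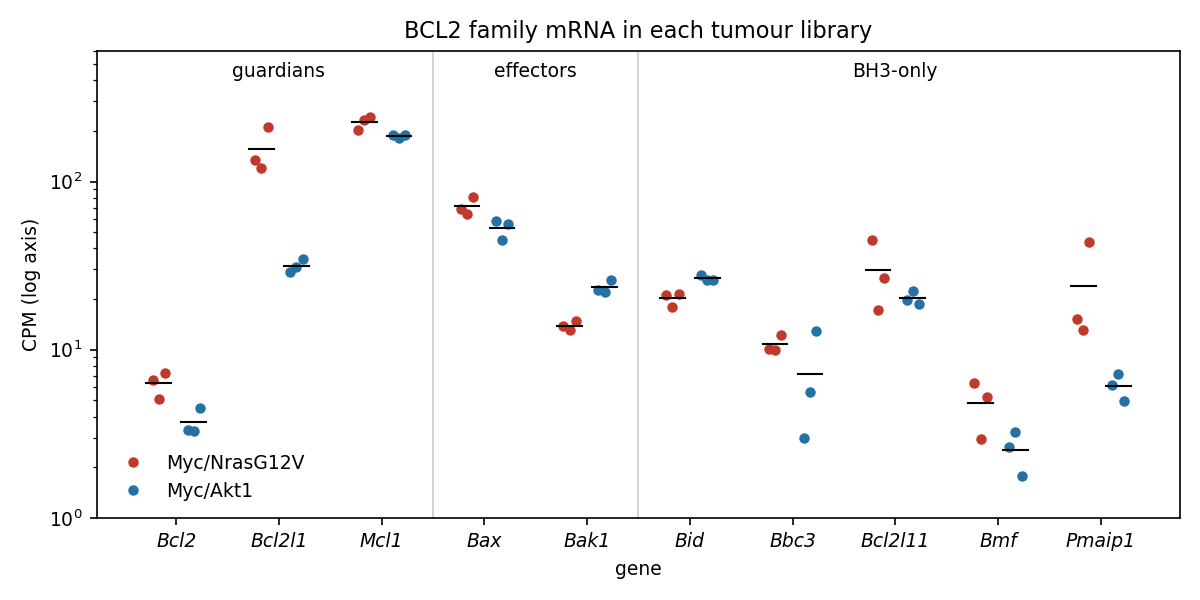
Level of each of the 10 members in every library (points, CPM on a logarithmic axis), with Myc/NrasG12V to the left of Myc/Akt1 and a bar at each group mean. For Bcl2l1 the Myc/NrasG12V libraries lie at 121 to 212 CPM and the Myc/Akt1 libraries at 28.9 to 34.5 CPM, while for Bak1 they lie at 13.1 to 14.8 and 22.0 to 26.1 CPM.

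Among the guardians, Bcl2l1 (ENSMUSG00000007659, GRCm38 chromosome 2, 152780668 to 152831728, minus strand) stood at 134, 121 and 212 CPM in the 3 Myc/NrasG12V libraries, against 28.9, 30.9 and 34.5 CPM in the 3 Myc/Akt1 libraries. The lowest Myc/NrasG12V library was more than 3 times the highest Myc/Akt1 library, and replicate 3 was the highest of all. The gene averaged 155 ± 49.1 CPM in Myc/NrasG12V and 31.4 ± 2.83 CPM in Myc/Akt1 (SD, n = 3 each), a 4.94-fold higher level. The log2 difference was 2.23 (95% interval 1.71 to 2.74) at an adjusted p of 2.31e-04 (limma, Benjamini-Hochberg). The gene was called under all 16 alternative settings, with log2 differences of 1.98 to 2.61 and adjusted p from 8.49e-25 to 0.00191. Without Myc/NrasG12V replicate 3 the level was 4.05-fold higher.

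Mcl1 (ENSMUSG00000038612), a guardian protein with a short life in the cell, differed little beside Bcl2l1. It stood at 204, 234 and 244 CPM in Myc/NrasG12V, against 189.7, 182 and 189.6 CPM in Myc/Akt1. Again no Myc/NrasG12V library lay within the Myc/Akt1 range, but the log2 difference of 0.27 (-0.08 to 0.63) did not pass the test (limma adjusted p 0.191), and it passed with TMM factors at 0.59 (limma adjusted p 0.0168). Bcl2 (ENSMUSG00000057329), the founding member of the family, was low, at 6.64, 5.10 and 7.27 CPM in Myc/NrasG12V, against 3.31, 3.27 and 4.50 CPM in Myc/Akt1. Its groups did not overlap either, with a log2 difference of 0.64 (0.11 to 1.18) at a limma adjusted p of 0.0567, or 0.90 at 0.0153 with TMM factors.

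Of the 2 effector genes, Bak1 passed the test on the CPM scale and Bax did not. Bak1 (ENSMUSG00000057789, GRCm38 chromosome 17, 27019810 to 27029009, minus strand), whose protein sits in the mitochondrial outer membrane, was at 13.8, 13.1 and 14.8 CPM in Myc/NrasG12V, against 22.7, 22.0 and 26.1 CPM in Myc/Akt1. Every Myc/NrasG12V library lay below every Myc/Akt1 library. The gene fell to 13.9 ± 0.845 CPM in Myc/NrasG12V, against 23.6 ± 2.18 CPM in Myc/Akt1 (SD, n = 3 each), with a log2 difference of -0.72 (-1.14 to -0.31) at a limma adjusted p of 0.0137. This call depends on the scaling: with TMM factors the log2 difference was -0.42 at a limma adjusted p of 0.0846, and over all alternatives the adjusted p ran from 0.0111 to 0.127. Without Myc/Akt1 replicate 1 the limma adjusted p was 0.0501. Bak1 shares 437 exon bases with Ggnbp1 on the opposite strand, which had 14.0, 12.5 and 30.3 CPM in Myc/NrasG12V and 7.68, 13.6 and 12.5 CPM in Myc/Akt1. The strand setting of the counting is not given in the sources used here, so reads of this stretch cannot be told apart.

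Bax (ENSMUSG00000003873), the effector that moves from the cytosol to mitochondria, was at 68.2, 64.0 and 81.3 CPM in Myc/NrasG12V, against 58.2, 44.9 and 55.7 CPM in Myc/Akt1. All Myc/NrasG12V libraries lay above all Myc/Akt1 libraries, and the log2 difference of 0.42 (0.02 to 0.82) missed the threshold (limma adjusted p 0.0892), while TMM factors gave 0.73 at 0.00997. Bax shares 192 exon bases with Gm45808 on the same strand. That gene is not among those listed for each library, so its level is not known. The ratio of the effectors within a library does not depend on the scaling. Bax per Bak1, each per kilobase of exon, was 7.58, 7.46 and 8.41 in Myc/NrasG12V, against 3.93, 3.11 and 3.26 in Myc/Akt1, a mean 2.28 times as high with no overlap. This pair of genes, like the other pairs below, was set side by side after their values were seen, and the ratio carries no test.

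**Figure D2:**
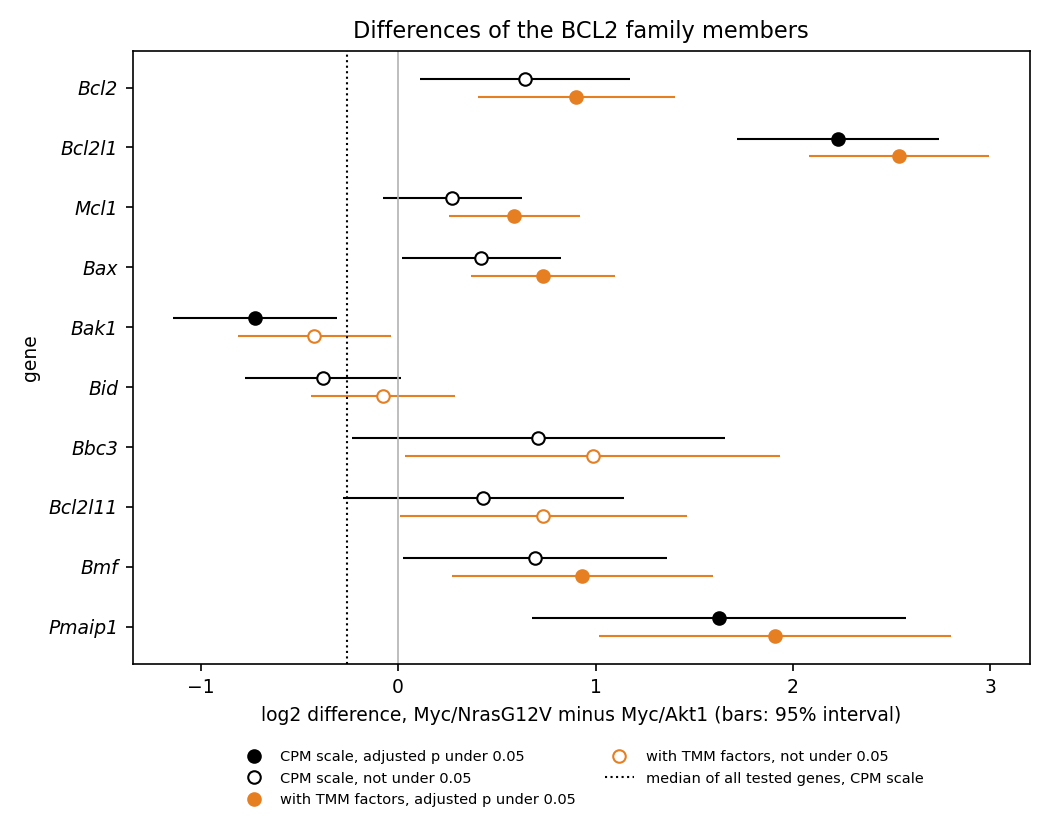
Log2 difference of each member, Myc/NrasG12V minus Myc/Akt1, with its 95% interval from limma, on the CPM scale and with TMM factors, beside the median of all genes tested. Bcl2l1 (2.23) and Pmaip1 (1.63) are called under both, Bak1 (-0.72) on the CPM scale only, and every member shifts to the right with TMM factors.

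Among the BH3-only genes, Pmaip1 (ENSMUSG00000024521), which encodes NOXA, a binder of Mcl1, was at 15.2, 13.1 and 43.8 CPM in Myc/NrasG12V, against 6.19, 7.18 and 4.95 CPM in Myc/Akt1. The ranges were apart, and replicate 3 of Myc/NrasG12V stood far above the other libraries. The mean was 24.1 ± 17.2 CPM in Myc/NrasG12V and 6.11 ± 1.11 CPM in Myc/Akt1 (SD, n = 3 each), a 3.94-fold higher level, and the log2 difference was 1.63 (0.68 to 2.57) at a limma adjusted p of 0.0146. Without that replicate the level was 2.32-fold higher, with a log2 difference of 1.10 at a limma adjusted p of 0.00655. Pmaip1 was called under all 16 alternatives, with adjusted p from 2.21e-06 to 0.0495.

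Bid (ENSMUSG00000004446), the BH3-only protein that caspase-8 cleaves, was at 21.2, 17.95 and 21.5 CPM in Myc/NrasG12V, against 27.8, 25.8 and 26.0 CPM in Myc/Akt1. These groups did not overlap, but the log2 difference of -0.38 (-0.78 to 0.02) did not pass (limma adjusted p 0.115) and was -0.08 with TMM factors (limma adjusted p 0.736). Bid shares 628 exon bases with Bcl2l13 on the opposite strand, at 54.1, 41.5 and 41.1 CPM in Myc/NrasG12V and 77.3, 69.8 and 50.7 CPM in Myc/Akt1, and the same limit on strand holds. Bid and Bak1 were the only members with a negative log2 difference.

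Bbc3 (ENSMUSG00000002083), which encodes PUMA, a p53 target, had groups that overlapped. It was at 10.1, 9.92 and 12.3 CPM in Myc/NrasG12V, against 2.97, 5.63 and 13.0 CPM in Myc/Akt1, where the third library was higher than any Myc/NrasG12V library. The log2 difference was 0.71 (-0.23 to 1.65) at a limma adjusted p of 0.205, and without Myc/Akt1 replicate 3 it was 1.19 at 0.0190, 2.50-fold higher. Bcl2l11 (ENSMUSG00000027381), which encodes BIM, was at 44.9, 17.3 and 26.8 CPM in Myc/NrasG12V, against 19.8, 22.2 and 18.8 CPM in Myc/Akt1. Here the spread was within Myc/NrasG12V, and the log2 difference of 0.43 (-0.28 to 1.14) did not pass (limma adjusted p 0.303). Bmf (ENSMUSG00000040093), a BH3-only protein tied to the cytoskeleton, was at 6.35, 2.94 and 5.20 CPM in Myc/NrasG12V, against 2.63, 3.23 and 1.77 CPM in Myc/Akt1. Its groups overlapped as well, with a log2 difference of 0.69 (0.02 to 1.36) at a limma adjusted p of 0.0928, or 0.93 at 0.0379 with TMM factors.

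Compared per kilobase of exon, so that genes of different length can be set side by side, Mcl1 led in both tumour types, at 66.4 ± 6.11 CPM per kilobase in Myc/NrasG12V and 54.7 ± 1.30 in Myc/Akt1 (SD, n = 3 each). Bax was next, at 45.2 ± 5.74 and 33.6 ± 4.50 CPM per kilobase in the same order. Bcl2l1 followed in Myc/NrasG12V, at 33.9 ± 10.7 CPM per kilobase, a level that overlapped that of Bax. In Myc/Akt1 it had rank 5, at 6.86 ± 0.618 CPM per kilobase, below Bak1 at 9.80 ± 0.906 and overlapping Bid at 7.48 ± 0.309. With the longest transcript as length, Bcl2l1 had rank 3 in Myc/Akt1, above Bid with rank 4 and Bak1 with rank 5. Bmf and Bcl2 closed the order in both, at 0.919 ± 0.331 and 0.692 ± 0.122 CPM per kilobase in Myc/NrasG12V and at 0.484 ± 0.140 and 0.403 ± 0.0764 in Myc/Akt1. Between them, the Myc/NrasG12V order Pmaip1, Bak1, Bid, Bbc3 and Bcl2l11 ran from 8.81 ± 6.28 to 3.70 ± 1.75 CPM per kilobase, and each neighbour overlapped the next. In Myc/Akt1 the genes Bbc3, Bcl2l11 and Pmaip1, at 3.38 ± 2.43, 2.52 ± 0.221 and 2.24 ± 0.408 CPM per kilobase, likewise overlapped from one to the next.

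The make-up of the guardians differed between the tumour types. Bcl2l1 gave 32.6%, 27.6% and 39.0% of the summed guardian level per kilobase in Myc/NrasG12V, against 10.1%, 11.2% and 11.8% in Myc/Akt1. Mcl1 gave 66.6%, 71.8% and 60.3% in Myc/NrasG12V, against 89.3%, 88.2% and 87.4% in Myc/Akt1, so on this length it was the largest guardian share in every library. Bcl2l1 per Mcl1 was 0.490, 0.385 and 0.647 in Myc/NrasG12V, against 0.114, 0.127 and 0.136 in Myc/Akt1, a 4.05-fold higher mean that does not depend on the scaling. With the longest transcript in place of all exons, the Bcl2l1 share averaged 46.7% in Myc/NrasG12V and 18.1% in Myc/Akt1, so the shares depend on the length used. On that length Bcl2l1 exceeded Mcl1 in Myc/NrasG12V replicate 3, at 82.4 and 71.3 CPM per kilobase.

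Summed by role, guardians reached 89.5, 95.2 and 118 CPM per kilobase in Myc/NrasG12V, against 62.2, 60.3 and 63.5 in Myc/Akt1, with no overlap. Effectors overlapped, at 49.0, 46.0 and 57.7 CPM per kilobase in Myc/NrasG12V and 46.4, 37.6 and 46.2 in Myc/Akt1. BH3-only genes overlapped too, at 23.1, 17.2 and 32.2 CPM per kilobase in Myc/NrasG12V and 14.5, 15.9 and 17.9 in Myc/Akt1. The guardian sum was therefore 1.63-fold higher, the effector sum 1.17-fold and the BH3-only sum 1.502-fold, on the CPM scale. All sums, shares and ratios by role cover the 10 members only. They leave out further family genes such as Bcl2l2, Bok, Bik, Hrk and Bad, so they are not totals of each role. Effectors per guardian, a ratio free of scaling, was 0.548, 0.483 and 0.488 in Myc/NrasG12V, below every Myc/Akt1 library at 0.746, 0.624 and 0.727. BH3-only per guardian averaged 0.237 ± 0.0492 in Myc/NrasG12V and 0.260 ± 0.0250 in Myc/Akt1, and the groups overlapped. Both ratios depend on the length used. With the longest transcript, effectors per guardian averaged 0.556 in Myc/NrasG12V and 0.859 in Myc/Akt1. BH3-only per guardian then averaged 0.234 and 0.322, in the same order.

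**Figure D3:**
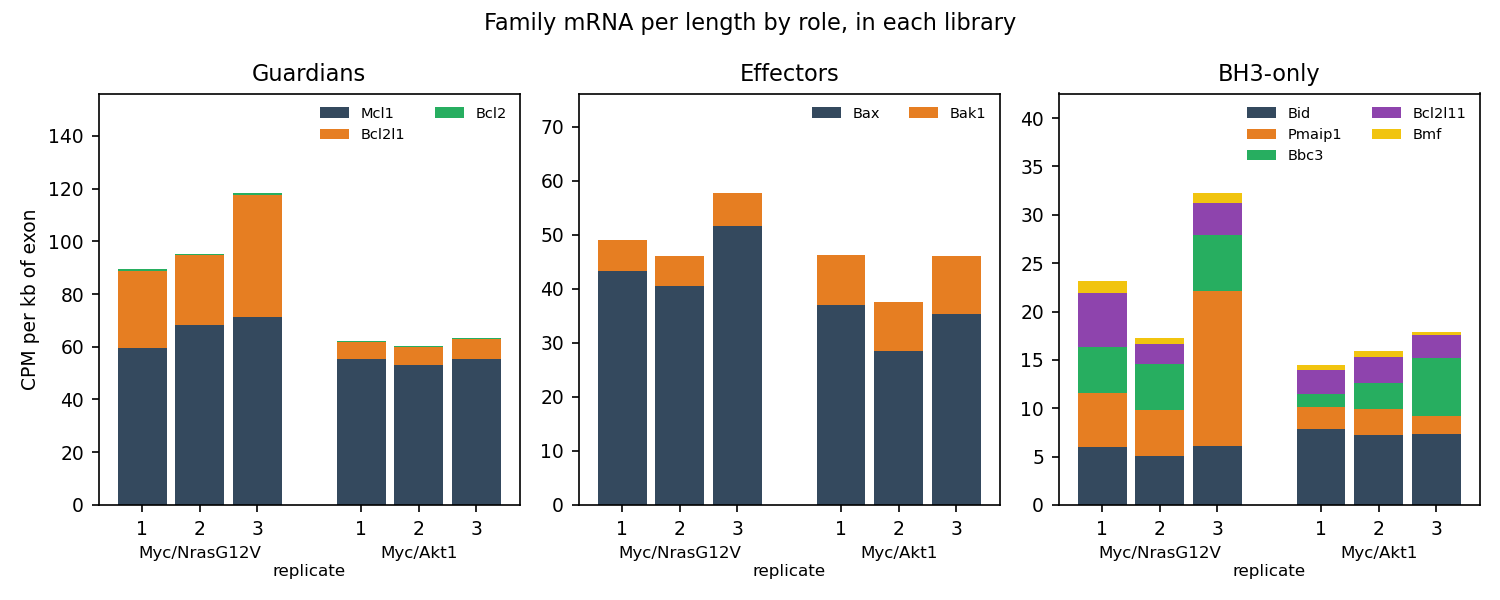
Level per kilobase of exon of guardians, effectors and BH3-only genes, as a stacked bar per library with a colour for each gene, with Myc/NrasG12V to the left of Myc/Akt1. Guardians lie at 89.5 to 118 CPM per kilobase in Myc/NrasG12V and at 60.3 to 63.5 in Myc/Akt1, mostly through the Bcl2l1 segment, and the other sums overlap between the groups.

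The make-up of the BH3-only pool, summed over these members, differed as well. Bid gave 25.9%, 29.3% and 18.8% of it in Myc/NrasG12V, against 54.2%, 45.7% and 40.9% in Myc/Akt1, where it was the largest component in each library. Pmaip1 gave 24.1%, 27.9% and 49.8% in Myc/NrasG12V, against 15.7%, 16.5% and 10.1% in Myc/Akt1. In Myc/NrasG12V Pmaip1 led the pool in replicate 3 only, and Bid had the larger share in replicates 1 and 2. Neither share overlapped between the groups, whereas the shares of Bbc3, Bcl2l11 and Bmf did.

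The sequence before the start of Bcl2l1, which had the largest log2 difference of the 10 members, is given next. The 250 bases before the farthest upstream RefSeq start of Bcl2l1 lie at chr2:152831729-152831978 (GRCm38.p6, minus strand), in lower case throughout because no searched motif was found in them.
Bcl2l1 upstream: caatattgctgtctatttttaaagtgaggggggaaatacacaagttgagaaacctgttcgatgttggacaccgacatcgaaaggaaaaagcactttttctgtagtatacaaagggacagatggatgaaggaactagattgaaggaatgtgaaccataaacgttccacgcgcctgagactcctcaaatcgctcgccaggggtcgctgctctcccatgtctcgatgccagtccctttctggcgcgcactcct
Motifs were searched on both strands in 16 windows of 9 members. They were the E-box CACGTG, bound by Myc and other basic helix-loop-helix proteins, the STAT motif TTCNNNGAA, the AP-1 motif TGANTCA, the ETS motif CCGGAAG, the FOXO motif GTAAACA and the CRE motif TGACGTCA. The E-box is in 6.02% of all 32817 RefSeq windows, the STAT motif in 7.01%, AP-1 in 6.75%, ETS in 6.90%, FOXO in 3.16% and CRE in 1.55%. An E-box lay 9 bases before a start of Bax and 64 bases before a start of Bbc3. An ETS motif lay 63 bases before a start of Mcl1 and 105 bases before one of Bcl2l11, and FOXO motifs lay 167 bases before Bbc3 and 227 bases before Bcl2l11. No window of Bcl2l1, Bak1, Bcl2, Bid or Bmf held any of them, which says only that these letters are not in these windows.

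Of 16 further family genes, 14 were found under their symbols and 11 could be tested. Among these, 5 of 11 changed, 2 higher and 3 lower, beside 39.5% of all genes called, 10% higher and 29.5% lower, with a median log2 difference of -0.02. Bcl2l14, which encodes BCL-G, was at 8.31, 4.55 and 12.6 CPM in Myc/NrasG12V, against 0.764, 1.00 and 0.591 CPM in Myc/Akt1, 10.8-fold higher, with a log2 difference of 2.32 at a limma adjusted p of 9.83e-04. Bnip3, a mitophagy receptor induced by low oxygen, was at 185, 211 and 314 CPM in Myc/NrasG12V, against 133, 123 and 156 CPM in Myc/Akt1. Its log2 difference was 0.75 at a limma adjusted p of 0.0270, a call that ended without Myc/NrasG12V replicate 2 (0.0510), without Myc/Akt1 replicate 1 (0.0849) and without Myc/Akt1 replicate 2 (0.0968). The groups did not overlap for either gene.

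The 3 that fell were an effector relative and 2 BH3-only genes. Bok, related to Bax and Bak1, was at 6.69, 9.83 and 11.0 CPM in Myc/NrasG12V, against 20.2, 18.2 and 21.1 CPM in Myc/Akt1, a log2 difference of -1.06 at a limma adjusted p of 0.00714. Bik was at 1.77, 1.52 and 2.18 CPM in Myc/NrasG12V, against 3.82, 4.49 and 5.59 CPM in Myc/Akt1, a log2 difference of -0.99 at a limma adjusted p of 0.00828. Hrk rested on 6 reads over the Myc/NrasG12V libraries and 119 over the Myc/Akt1 libraries, a mean of 0.0991 and 1.68 CPM, with a log2 difference of -1.21 at a limma adjusted p of 0.00887. Myc/Akt1 replicate 3 held 66 of the 119 reads, and without it the level in Myc/Akt1 was 10.4-fold higher than in Myc/NrasG12V, where all libraries gave 17.0-fold. All 3 were low in every Myc/NrasG12V library relative to every Myc/Akt1 library. Bad and Bnip3l showed log2 differences of -0.02 and -0.00 (limma adjusted p 0.944 and 0.992). Bcl2l2, the guardian BCL-W, averaged 25.7 CPM in Myc/NrasG12V and 18.3 CPM in Myc/Akt1 (limma adjusted p 0.140, or 0.0185 with TMM factors).

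Downstream of the family, 6 of 17 apoptosome and caspase genes passed the test, each lower in Myc/NrasG12V, a share not far from the 29.5% of all genes called lower. The median log2 difference was -0.27, near that of all genes. Cycs, the cytochrome c released from mitochondria, was at 13.4 ± 1.45 CPM in Myc/NrasG12V and 63.4 ± 11.9 CPM in Myc/Akt1, a log2 difference of -2.15 at a limma adjusted p of 1.52e-04. Aifm1, a flavoprotein of the intermembrane space, was at 69.6 ± 6.55 and 271 ± 16.9 CPM in the same order, a log2 difference of -1.95 at 9.26e-05. Dffa, the inhibitor of the apoptotic nuclease, fell as well (-0.87, limma adjusted p 0.00788). With TMM factors 4 were lower and Apaf1 and Birc3 were higher, while the calls of Casp6 and Birc6 ended (limma adjusted p 0.151 and 0.422), as they also did without any of several single libraries.

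Of 10 death receptor genes tested, 4 fell, beside 29.5% of all genes, with a median log2 difference of -0.58. They were the ligand gene Tnfsf10 (TRAIL), at 2.20 ± 0.913 CPM in Myc/NrasG12V and 9.61 ± 3.60 CPM in Myc/Akt1, the receptor gene Fas at 14.2 ± 2.27 and 27.8 ± 1.87 CPM, the adaptor gene Fadd at 4.20 ± 0.882 and 9.73 ± 1.10 CPM, and Casp8, which cleaves Bid, at 20.3 ± 1.91 and 39.9 ± 8.90 CPM, all in that order. Their log2 differences were -1.71, -0.93, -1.06 and -0.92. These 4 also passed with TMM factors, where Tnfrsf10b and Tnfrsf1a were higher, and the calls of Fas and Casp8 ended with upper-quartile factors (limma adjusted p 0.0564 and 0.0553).

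Among 14 tested genes for mitochondrial partners of the family and for Mcl1 turnover, 7 fell, beside 29.5% of all genes, with a median log2 difference of -0.67. The channel gene Vdac1 was at 146 ± 12.2 CPM in Myc/NrasG12V and 376 ± 14.8 CPM in Myc/Akt1, and Vdac3 at 24.8 ± 3.15 and 65.8 ± 5.09 CPM. Opa1, which shapes the inner membrane, was at 59.3 ± 1.35 and 161 ± 34.6 CPM, and Mtch2, a receptor for truncated Bid, at 118 ± 3.53 and 217 ± 9.43 CPM. Their log2 differences were -1.36, -1.37, -1.40 and -0.88, with limma adjusted p from 3.84e-04 to 0.00203. With TMM factors 6 of the 7 were still lower, and Huwe1, a ubiquitin ligase for Mcl1, was no longer called (limma adjusted p 0.0655).

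Of 14 tested transcriptional regulators of the family, 4 fell, near the 29.5% of all genes called lower, with a median log2 difference of -0.08. E2f1 was at 3.78 ± 0.826 CPM in Myc/NrasG12V and 14.1 ± 0.942 CPM in Myc/Akt1 (log2 difference -1.67, limma adjusted p 7.58e-04), and Hif1a at 47.8 ± 7.64 and 102 ± 13.5 CPM (-1.09, limma adjusted p 0.00229). Stat5a (-0.86, limma adjusted p 0.00987) and Trp53, which encodes p53 and regulates Bax, Bbc3 and Pmaip1 (-0.53, limma adjusted p 0.0233), passed on the CPM scale and not with TMM factors. There, Nfkb1 and Stat3 were called higher beside the lower E2f1 and Hif1a. Without Myc/Akt1 replicate 1 only 2 regulators were called on the CPM scale, beside 3856 of 14365 genes. The Stat5a call ended there too (limma adjusted p 0.0556), and that of Trp53 ended when either of replicates 1 and 2 was left out in either tumour type (limma adjusted p 0.0552 to 0.101).

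**Figure D4:**
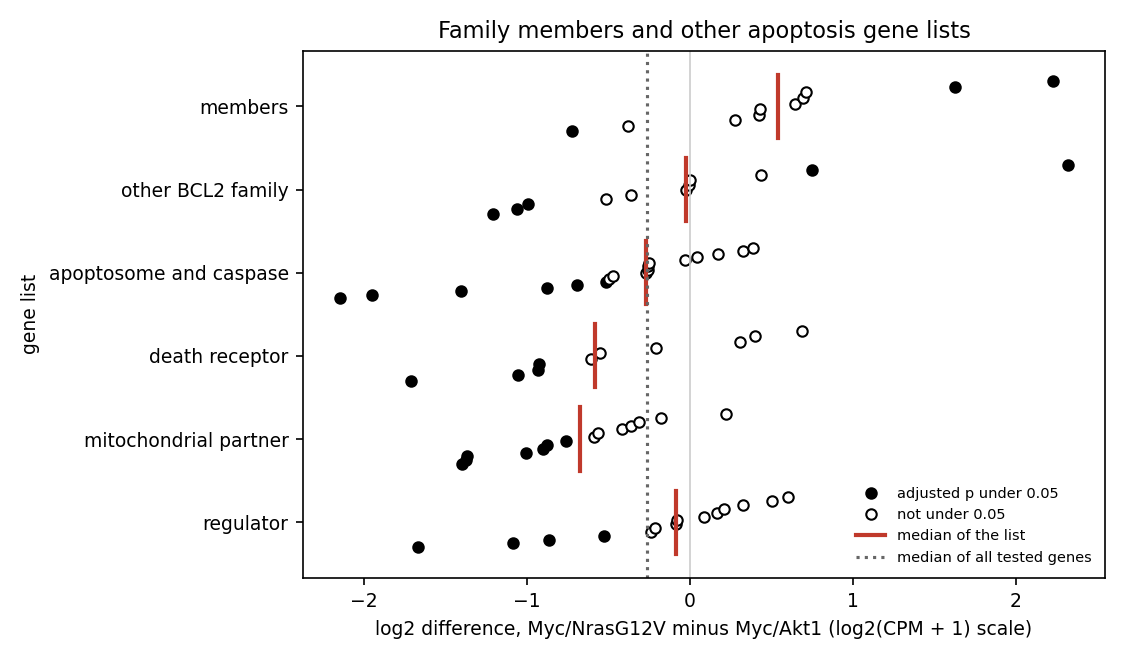
Log2 difference, Myc/NrasG12V minus Myc/Akt1, of every tested gene of the family and of the related lists (points, filled where called by limma on the CPM scale), with the median of each list and of all genes. The family median is 0.54, the death receptor median -0.58, the mitochondrial partner median -0.67 and the median of all genes -0.26.

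Markers of several other cell types differed in the same comparison. The counts of called markers, here and in the next paragraph, stand beside 10% of all genes called higher and 29.5% called lower. The 10 neutrophil markers summed to 34.1, 74.0 and 213 CPM in Myc/NrasG12V, against 4.88, 4.16 and 3.64 CPM in Myc/Akt1, and 8 of 10 were higher. The 9 erythroid markers found summed to 301, 1073 and 1870 CPM in Myc/NrasG12V, against 57.8, 50.0 and 104 CPM in Myc/Akt1, and 6 of 8 tested were higher. Both sums were highest in Myc/NrasG12V replicate 3, the library in which Bcl2l1 and Pmaip1 were highest, and the part of these cells in the levels of the 2 genes was not tested. Bcl2l1 is a known survival gene of red cell precursors. The tested erythroid markers that were not called were Alas2 and Klf1 (limma adjusted p 0.762 and 0.750). Alas2 averaged 49.0 CPM in Myc/NrasG12V and 36.0 CPM in Myc/Akt1, and Klf1 1.08 and 1.43 CPM, each with overlap. In replicate 1 the neutrophil and erythroid sums were lowest within Myc/NrasG12V, at 34.1 and 301 CPM. Bcl2l1 was at 134 CPM and Pmaip1 at 15.2 CPM there, and each of these values lay above every Myc/Akt1 library. In Myc/NrasG12V replicate 2 the neutrophil and erythroid sums were higher than in replicate 1, at 74.0 and 1073 CPM. Bcl2l1 and Pmaip1 were lower there than in replicate 1, at 121 and 13.1 CPM, so the genes and the sums did not share 1 order.

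T and NK cell markers summed to 13.7 to 35.9 CPM in Myc/NrasG12V and 5.77 to 8.40 CPM in Myc/Akt1. Of 8 tested, 4 were higher, and the sum peaked in Myc/NrasG12V replicate 1, as Bcl2l11 and Bmf did. Cd4 and Ncr1 of this list went the other way, each with no overlap. Cd4 averaged 1.29 CPM in Myc/NrasG12V and 2.49 CPM in Myc/Akt1, and was not called. Ncr1 was too low to be tested, with 2 reads over the Myc/NrasG12V libraries and 19 over the Myc/Akt1 libraries. Macrophage markers summed to 284 to 586 and 200.04 to 266 CPM, with 4 of 9 higher, and cholangiocyte markers to 424 to 968 and 127 to 262 CPM, with 1 of 5 higher. B cell markers (3.97 to 12.0 and 5.23 to 8.11 CPM), endothelial markers (151 to 237 and 172 to 215 CPM) and stellate cell markers (303 to 376 and 267 to 431 CPM) had sums that overlapped between the groups. Of the 7 endothelial markers, Stab2, Clec4g and Lyve1 were nonetheless higher and Cdh5 lower, and of the 7 stellate markers Reln was higher, at 78.0 ± 10.6 CPM in Myc/NrasG12V and 14.3 ± 5.90 CPM in Myc/Akt1. All 9 proliferation genes fell, with a sum of 72.2 to 118 CPM in Myc/NrasG12V and 513 to 931 CPM in Myc/Akt1. No marker was at 0 in all libraries, and the part of any of these lists in the members' values was not tested.

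**Figure D5:**
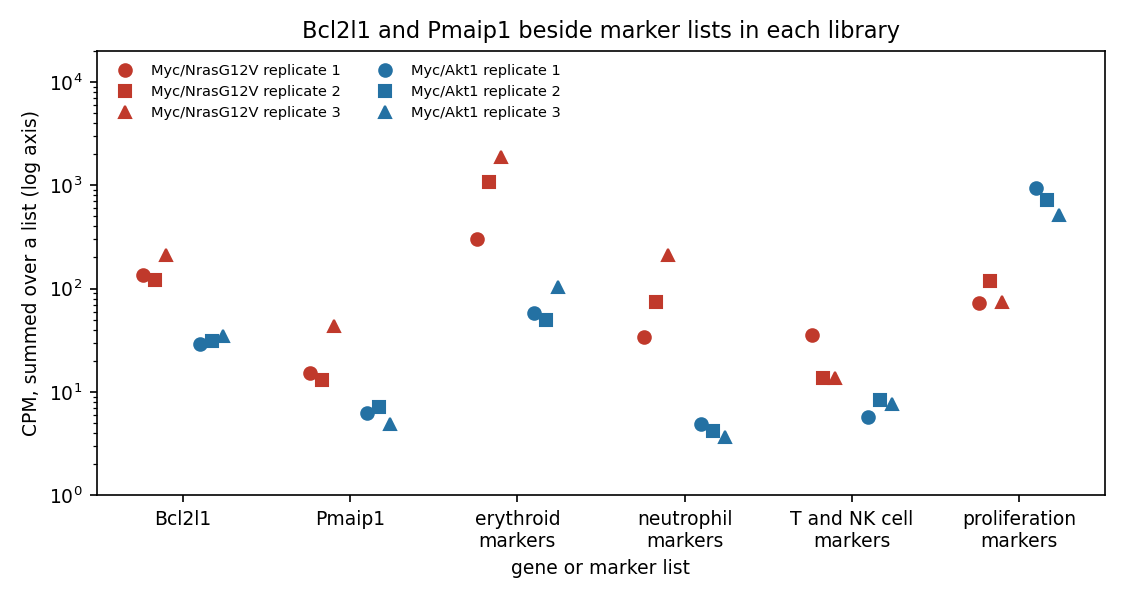
CPM of Bcl2l1 and Pmaip1 and summed CPM of the erythroid, neutrophil, T and NK cell and proliferation markers in every library (logarithmic axis, a symbol for each replicate), with Myc/NrasG12V to the left of Myc/Akt1. Neutrophil and erythroid sums reach 213 and 1870 CPM in Myc/NrasG12V replicate 3, and the highest Myc/Akt1 values are 4.88 and 104 CPM.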

How the data were processed

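The deposited values are CPM per gene, one column per library, each scaled to a library total of 1000000. Per the submitters' processing notes, the authors used STAR 2.6.1c, Subread 1.6.3, edgeR 3.22.5 and GRCm38, with no role stated for each. The annotation release and strand setting are not given in the sources used here. Deposited CPM values were multiples of 1 read, so 100% gave whole reads (within 0.01 read), and depth was recovered from them. A CPM of 0.108 to 0.168 stands for 3 reads.

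Genes with 0.457 CPM or more in 3 libraries and 15 reads in all were tested. The test was limma 3.58.1 with a mean-variance trend, two-sided, on log2(CPM + 1) over all 6 libraries, under R 4.3.3, with Benjamini-Hochberg adjustment over all 14365 genes and a threshold of 0.05. Log2 differences carry the added 1, which understates the change of low genes; folds are ratios of mean CPM. An exact permutation of 3 against 3 cannot go below 0.1. Alternatives were factors by TMM, by median of ratios or by upper quartile, pseudocounts of 0.1 and 5, 2 other filters, a replicate block, each library left out, and edgeR 4.0.16 (quasi-likelihood, 4893 genes called) and DESeq2 1.42.0 (5543 called) on recovered reads. Scripts were tested on simulated data.

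Symbols and exon lengths came from GENCODE M21 (GRCm38), which matched 96.0% of the listed IDs, and upstream windows from RefSeq. Sequences are from these references. The members and gene lists were chosen with earlier results of these data known. Named were every member, every other family gene called, and the 4 genes with the lowest p of each further list; others were named after their values were seen, and 1 gene that the rule names is not reported here. Bcl2a1a and Bcl2a1d were not analysed here.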

Additional observations from a re-analysis of the deposited data

How the results depend on the processing

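The number of family members called was 6 with factors by TMM, 6 by median of ratios, 6 by upper quartile, 6 with edgeR and 7 with DESeq2, each of them higher in Myc/NrasG12V, where the CPM scale gave 3. Leaving out 1 library gave 2 to 5 members. The most were called without Myc/Akt1 replicate 3, beside 5262 of 14365 genes, and the fewest without Myc/Akt1 replicate 1, beside 3856. For the transcriptional regulators, leaving out 1 library gave 2 to 6 calls, the fewest without Myc/Akt1 replicate 1. The most were without Myc/NrasG12V replicate 3, beside 6298 of 14365 genes. Bcl2l1 and Pmaip1 were called under all 16 alternatives, and no member changed sign. The labels state no pairing of samples by replicate number. Correlations of same-numbered samples, taken as deviations from group means, were -0.081, 0.113 and 0.085, and those of other pairs -0.136 to 0.087. Not every sample correlated best with its own number, and with 3 samples a group these values cannot decide on pairing. With the replicate block 5530 genes and 3 members were called. The lowest member, Bmf, had 39 reads in its poorest library and each interval rests on 3 samples a group.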

Other observations

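Genes whose levels followed Bcl2l1 and Bak1 most closely were ranked by the root mean square distance between log2(CPM + 1) values, each centred on its own mean over the 6 libraries, among the 10406 genes that averaged 5 CPM or more. The nearest to Bcl2l1 were Ccbl1, an aminotransferase of the kynurenine pathway (distance 0.127), Pear1, a receptor of platelets and endothelium (0.158), and Cxcl1, a neutrophil chemokine (0.166). Cxcl1 stood at 75.7, 90.6 and 119 CPM in Myc/NrasG12V, against 19.9, 18.5 and 24.6 CPM in Myc/Akt1. Ccbl1 stood at 593, 523 and 981 CPM in Myc/NrasG12V, against 139.6, 179 and 171 CPM in Myc/Akt1. The nearest to Bak1 were Dmap1, a subunit of chromatin complexes (0.0318), Vta1, a factor of endosomal sorting (0.0353), and Ntan1, an asparagine amidase (0.0436). Dmap1 stood at 10.6, 10.5 and 12.2 CPM in Myc/NrasG12V, against 18.1, 17.6 and 20.4 CPM in Myc/Akt1. With 6 libraries in 2 groups, these distances mostly follow the difference between the groups, and they carry no test.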
